A study of Mus musculus with 4 samples.

Results

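The 9 genes described here make, carry, degrade and sense retinoic acid: Aldh1a2, Aldh1a3, Rdh10, Dhrs3, Crabp1, Crabp2, Cyp26b1, Rara and Rarg. They were taken by symbol from a list of retinoid synthesis, binding, breakdown and receptor genes, and all 9 were found among the 22552 symbols of the deposited tables. The 4 RNA libraries came from spermatogonial stem cells, the self-renewing male germ cells, derived from testes of DBA/C57 F1 male mice aged 5 to 7 days. The cells were single-cell clones with an inducible knockout of miR-202, grown overnight on laminin. Doxycycline, which induces the knockout, was then given at 10 µg/ml for 2 days, or was left out. There were 2 libraries per condition, from 2 clones, so same-numbered libraries are taken as a clone with and without the drug. The titles give only replicate numbers, so this match of number to clone is an assumption. Every library carries the genotype label wild type, and the system that links doxycycline to the knockout is not given in the sources used here. Both groups come from engineered clones and none of the libraries is of treated parental cells, so an effect of doxycycline itself and one of losing miR-202 cannot be told apart.

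Retinoic acid is made from retinol in successive oxidations. RDH10 oxidises retinol to retinaldehyde, DHRS3 reduces retinaldehyde back to retinol, and the ALDH1A enzymes oxidise retinaldehyde to retinoic acid. CRABP proteins carry retinoic acid in the cytoplasm, CYP26 enzymes degrade it, and RAR receptors paired with RXR partners bind it on DNA. In the testis retinoic acid drives spermatogonia to differentiate and to enter meiosis, and Stra8 and Kit are among the genes it induces.

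The study asked what miR-202 represses, and Aldh1a3 was the member whose 3' UTR held a match to its seed, the bases of a microRNA that pair with a target. The mature arms below and let-7a, which is set beside them because it shares bases with the 3p arm, are from RefSeq (GRCm38.p6), with bases 2 to 8 in capitals. The last line is the Aldh1a3 site in the longest GENCODE M21 3' UTR, with the match in capitals.
mmu-miR-202-5p: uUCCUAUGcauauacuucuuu
mmu-miR-202-3p: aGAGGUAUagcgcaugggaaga
mmu-let-7a-5p: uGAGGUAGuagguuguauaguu
Aldh1a3 3' UTR site: gtgacctgggTACCTCAgtcatgttaa
The site spans positions 1062 to 1068 of a 3' UTR of 1799 bases and pairs with bases 2 to 7 of miR-202-3p, followed by A. Bases 2 to 7 of that arm, GAGGUA, are also those of 12 other mature microRNAs in the table, 10 of them let-7 members, so the same letters match let-7a. For the 3p arm the heptamer ATACCTC was searched, with TACCTCA as the form that ends in A. For the 5p arm the heptamer CATAGGA was searched, with ATAGGAA as that form. The 3' UTRs of the other 8 genes, from 234 bases for Crabp1 to 2853 for Cyp26b1, held neither pair. Among 10520 tested genes with an annotated 3' UTR, 13.9% held a 3p match and 15.8% a 5p match. The median log2 change with doxycycline was -0.0083 for genes with a 3p match and 0.000029 for those without. For the 5p arm the medians were -0.012 with a match and 0.00074 without. A match is a run of letters and not a site shown to bind.

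Expression is given in FPKM, in which fragments are divided by the length of the transcript and the size of the library, so levels of different genes may be set side by side. Library sums ran from 309153 to 320243 FPKM, and correlations of log2 values between libraries from 0.990 to 0.996. The number of reads is unknown. Mir202, the targeted gene, was listed at 0 in all 4 libraries, as were all 594 numbered microRNA symbols, so it does not check the labels. Genes listed as markers of undifferentiated spermatogonia were high, with all 15 tested and summed levels of 1106 to 1146 FPKM. The highest, at a mean of 291.1 FPKM, was Dazl, a germ cell RNA-binding gene that is not confined to undifferentiated spermatogonia. Fibroblast markers summed to 118.8 to 143.6 FPKM, with none of 12 at 0 and the collagen gene Col1a1 at a mean of 38.8. Sertoli markers summed to 9.55 to 11.7 FPKM with the FSH receptor gene Fshr at 0, Leydig and peritubular markers to 11.6 to 17.6 with Cyp17a1, Hsd3b1 and Lhcgr at 0, and macrophage and blood markers to 5.72 to 8.50 with Hbb-b1 and Tyrobp at 0.

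The 9 genes were present at very different levels. Crabp1 stood far above the rest with a mean of 124.5 FPKM over the 4 libraries, higher than 97.2% of the tested genes. Rarg followed at 24.5 and lay above Rara, at 14.3, in every library. Rara and Aldh1a2, at 14.1, overlapped in range, with Aldh1a2 the higher in both doxycycline libraries and Rara in both untreated ones. The ranges of Aldh1a2 and Crabp2, at 10.9, also overlapped, although Aldh1a2 was higher in all 4 libraries. Below them came Dhrs3 at 6.23, Rdh10 at 3.51, Aldh1a3 at 2.42 and Cyp26b1 at 0.102 FPKM, each step with no overlap of ranges. Cyp26b1, under 1 FPKM on average, was not tested.

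**Figure D1:**
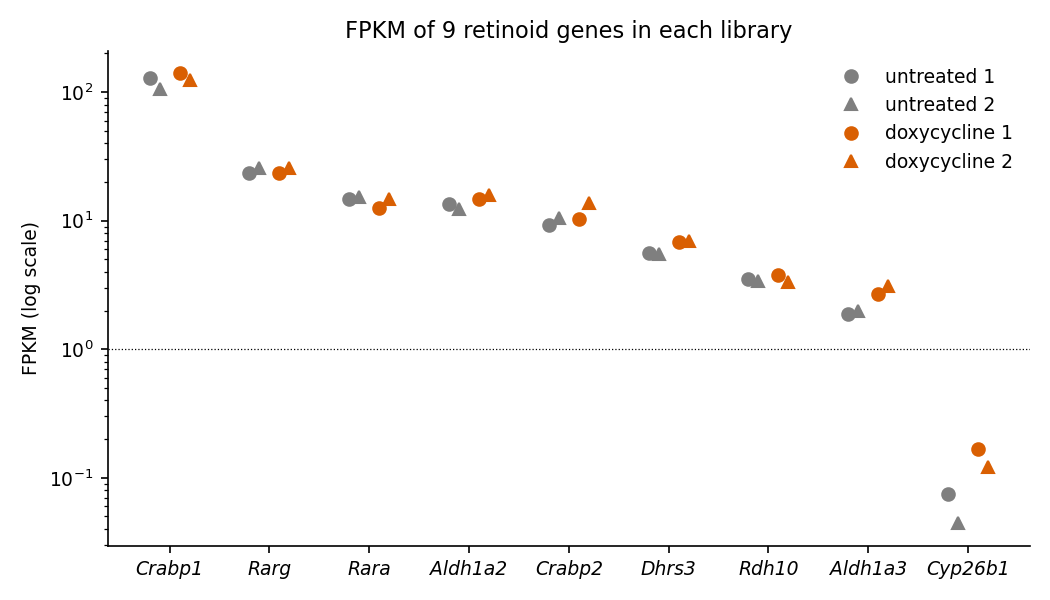
FPKM of the 9 genes (log axis) in each library, grey for untreated and orange for doxycycline, circles for replicate 1 and triangles for replicate 2, with a dotted line at 1 FPKM. Crabp1 lies above 100 FPKM in every library, and Cyp26b1 lies below 1 FPKM in every library.

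The comparison of doxycycline with untreated libraries asks whether retinoid genes differ when the miR-202 knockout is induced, and the loss of miR-202 itself could not be checked in these libraries. None of the 8 tested members passed limma's test on log2(FPKM + 1) at a Benjamini-Hochberg adjusted p under 0.05 over 11924 genes. The background was low, since 33 genes, 0.277% of those tested, passed. At an unadjusted p under 0.05 there were 3 members, Aldh1a2, Aldh1a3 and Dhrs3, all higher, against 15.1% of all tested genes, or 8.46% counting higher genes alone. With the replicate number as a block, 3.7% of all genes passed, 2.73% as higher, and so did 1 member, Aldh1a3, which was higher. In that blocked fit 2 of the 15 undifferentiated spermatogonia markers fell, as did 116 of all 11924 genes. Both markers were below their partners in each pair, and their part in the members' values was not tested. Of the 15 markers, 4 were higher and 7 lower in both pairs, with a median log2 change of -0.05. Nanos3, a germ cell RNA-binding gene, was at 23.9 and 24.5 FPKM under doxycycline against 27.4 and 32.8 in untreated cells (log2 change -0.30, limma adjusted p = 0.0413 with the block and 0.212 without). Utf1, a chromatin factor of undifferentiated spermatogonia, was at 6.37 and 5.52 FPKM against 7.91 and 7.22 (log2 change -0.30, limma adjusted p = 0.0479 with the block and 0.215 without). The median log2 change of the 8 was 0.20, at 0.12 in the replicate 1 pair and 0.26 in the replicate 2 pair, while that of all tested genes was -0.0022. Of the 8, 5 were higher with the drug in both pairs (32.8% of all tested genes were) and 1 was lower (34%). The groups did not overlap for 3 of the 8, each time with doxycycline higher, as for 23.5% of all tested genes.

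**Figure D2:**
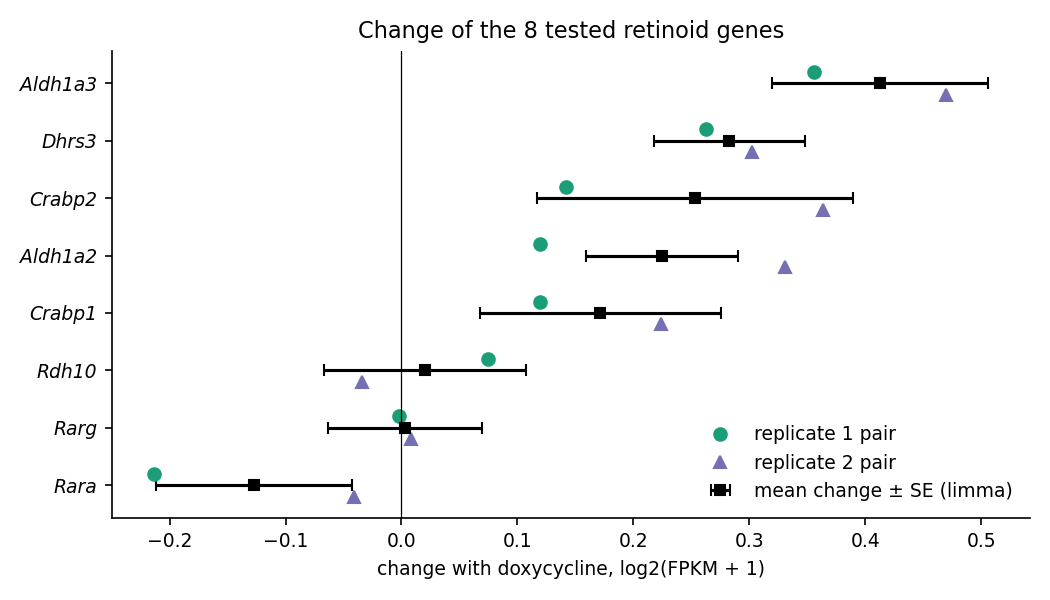
Change with doxycycline on the log2(FPKM + 1) scale for the 8 tested genes, with black squares and bars for the mean ± SE from limma (n = 2 libraries per group) and coloured points for each same-numbered pair. Aldh1a3 lies furthest to the right at 0.41, while Rarg and Rdh10 lie near 0.

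Among the enzymes of synthesis, the change was largest for Aldh1a3, the retinaldehyde dehydrogenase that in the mouse embryo serves the eye and nasal region (chromosome 7, 73535778 to 73572363, mm9, as deposited). It stood at 2.69 and 3.12 FPKM in doxycycline replicates 1 and 2 and at 1.89 and 1.98 FPKM in the untreated ones. Both treated libraries were above both untreated ones. The deposited confidence bounds of doxycycline replicate 1 were 2.31 to 3.08 FPKM. They held no other library, with doxycycline replicate 2 above them and both untreated ones below. The means were 2.91 ± 0.305 and 1.93 ± 0.0659 FPKM (SD, n = 2 each), a ratio of 1.51. The log2 change was 0.41 ± 0.09 (SE), larger than that of 98.8% of tested genes, with a limma adjusted p of 0.160. With the clone as a block the limma adjusted p was 0.0462.

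Aldh1a2, the main retinaldehyde dehydrogenase of the mouse embryo (chromosome 9, 71063595 to 71144050), stood at 14.8 and 15.7 FPKM under doxycycline against 13.6 and 12.3 FPKM in untreated cells. The groups did not overlap, and the lower treated library exceeded the higher untreated one by less than the gap between the untreated libraries. The ratio of means was 1.18 and the log2 change 0.22 ± 0.07 (SE), with limma adjusted p of 0.219 and, with the block, 0.0956. The third gene of the family, Aldh1a1, was near 1 FPKM, at 0.958 and 1.09 under doxycycline against 0.703 and 0.840 in untreated cells, and was not tested. Aldh1a2 thus made up 78.9% to 84.0% of the FPKM of the 3 genes in every library. Aldh1a3 made up 14.6% and 15.7% with doxycycline and 11.7% and 13.1% without. The ratio of Aldh1a2 to Aldh1a3 was 5.50 and 5.04 under doxycycline against 7.20 and 6.22 in untreated cells, so the treated values were the lower ones.

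Rdh10 (chromosome 1, 16095962 to 16122631), which makes the retinaldehyde that the ALDH1A enzymes use, was at 3.79 and 3.31 FPKM under doxycycline against 3.55 and 3.41 in untreated cells. The untreated values lay between the treated ones. Its log2 change was 0.02 with a 95% interval of -0.19 to 0.23 (limma adjusted p = 0.933). Dhrs3, which runs that step in reverse (chromosome 4, 144482729 to 144517548), was at 6.87 and 7.00 FPKM under doxycycline against 5.56 and 5.48 in untreated cells. Replicates were close in each group, with means of 6.93 ± 0.0890 and 5.52 ± 0.0556 FPKM (SD, n = 2 each), and the groups were well apart. The ratio of means was 1.26 and the log2 change 0.28 ± 0.07 (SE). The limma adjusted p was 0.165, and 0.0590 with the block. The ratio of Rdh10 to Dhrs3 was 0.551 and 0.472 under doxycycline against 0.637 and 0.622 in untreated cells, lower in both treated libraries.

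The carrier genes were higher with doxycycline within each same-numbered pair, while the groups overlapped. Crabp1 (chromosome 9, 54612614 to 54620916) was at 140.3 and 123.2 FPKM under doxycycline against 129.0 and 105.4 in untreated cells. Replicate 1 was the higher in both conditions. The ratio within a pair was 1.09 and 1.17, and the log2 change 0.17 ± 0.10 (SE), with a limma adjusted p of 0.477 and, with the block, 0.0641. Fibroblast markers, summed over the list, followed the same order of libraries, at 143.6 and 129.7 FPKM under doxycycline against 142.0 and 118.8 in untreated cells, and their part in the Crabp1 values was not tested. None of the 10 tested fibroblast markers passed limma's test with or without the block. At an unadjusted p under 0.05 there were 0 of them without the block and 3 with it (22.4% of all tested genes with it). Those 3 were Lum, Col1a1 and Dcn, all higher in both pairs, with log2 changes of 0.28, 0.16 and 0.18. Their limma adjusted p with the block was 0.0921, 0.137 and 0.179. Of all 10 tested fibroblast markers, 4 were higher and 2 lower in both pairs (32.8% and 34% of all tested genes). The median log2 change of the 10 was 0.03.

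Crabp2 (chromosome 3, 87752614 to 87757294), the carrier that delivers retinoic acid to RAR in the nucleus, was at 10.2 and 13.8 FPKM under doxycycline against 9.17 and 10.5 in untreated cells. Here replicate 2 was the higher in both conditions, the reverse of Crabp1. The ratio within a pair was 1.11 and 1.31, and the log2 change 0.25 ± 0.14 (SE), with a limma adjusted p of 0.432 and, with the block, 0.0861. Crabp1 exceeded Crabp2 by 13.7 and 14.1 times in the replicate 1 libraries and by 8.90 and 10.0 times in the replicate 2 libraries. The ratio between the carriers thus differed more between replicate numbers than with the drug.

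Cyp26b1, which degrades retinoic acid and in the fetal mouse testis shields germ cells from it (chromosome 6, 84521407 to 84543902), was near the floor. It was listed at 0.167 and 0.121 FPKM under doxycycline against 0.0742 and 0.0443 in untreated cells. The groups did not overlap. The deposited bounds of doxycycline replicate 1 ran from 0.0837 to 0.250 FPKM, a half-width of 49.9% of the value, and both untreated values lay below them. Of the CYP26 genes Cyp26a1, whose transcription retinoic acid induces, was the most abundant. It was at 1.34 and 2.02 FPKM under doxycycline against 1.61 and 1.62 in untreated cells, with no shift beyond the spread of the treated libraries (log2 change 0.02, limma adjusted p = 0.950). Cyp26c1 was at 0.302 and 0.248 FPKM against 0.151 and 0.173. The 3 genes summed to 1.81 to 2.39 FPKM, below Aldh1a2 alone in each library.

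For both receptor genes the groups overlapped. Rarg, the receptor gene of mouse spermatogonia that respond to retinoic acid (chromosome 15, 102065370 to 102087914), was at 23.4 and 25.8 FPKM under doxycycline against 23.4 and 25.6 in untreated cells. Each treated library matched its partner, with pair ratios of 0.998 and 1.01, while the replicate numbers were apart. The log2 change was 0.0030 with a 95% interval of -0.16 to 0.16 (limma adjusted p = 0.988). Rara (chromosome 11, 98799009 to 98836256) was at 12.5 and 14.9 FPKM under doxycycline against 14.6 and 15.3 in untreated cells. It was lower in both treated libraries than in their partners, by 0.21 and 0.041 on the log2 scale, and the groups overlapped. Its log2 change was -0.13 with a 95% interval of -0.33 to 0.08 (limma adjusted p = 0.515). Without doxycycline replicate 1 it was -0.0099, and without doxycycline replicate 2 it was -0.24. Rarb, itself induced by retinoic acid in many cells, was listed at 0.0131 to 0.0427 FPKM. Rarg accordingly made up 61.5% to 65.1% of the FPKM of the RAR genes, and the ratio of Rarg to Rara was 1.87 and 1.73 under doxycycline against 1.60 and 1.67 in untreated cells.

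**Figure D3:**
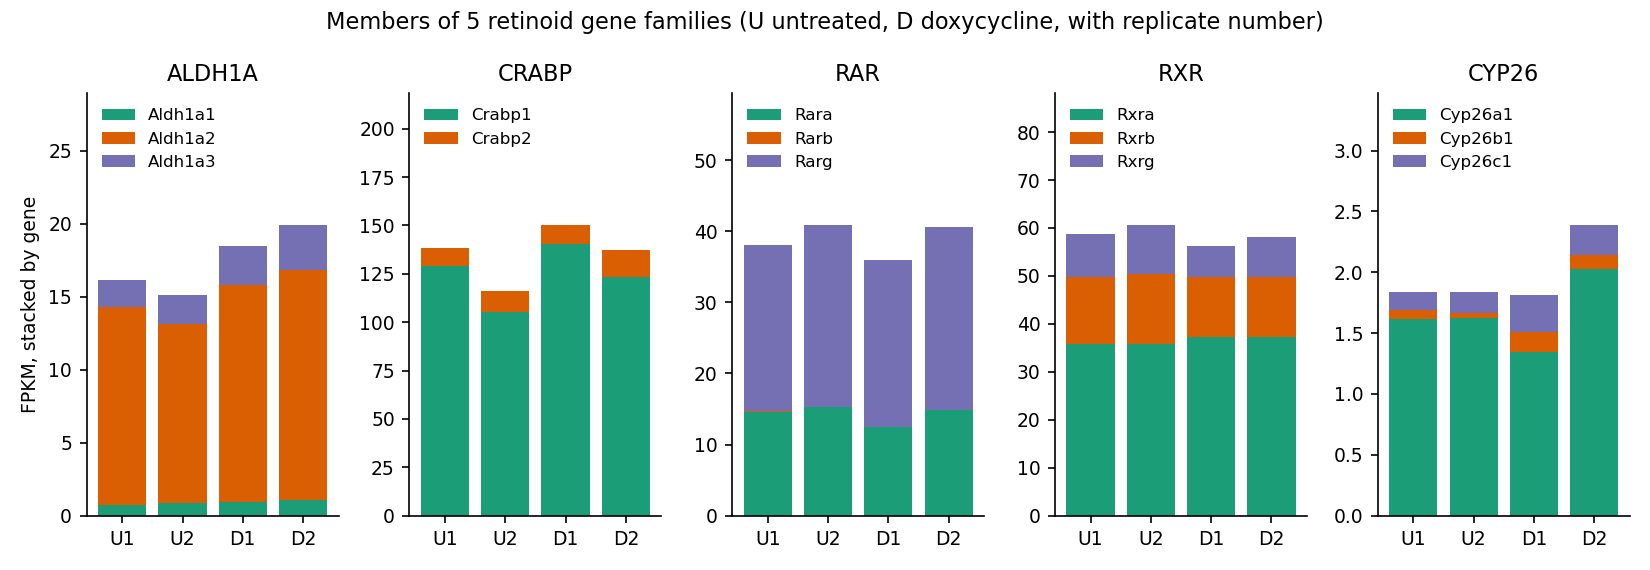
FPKM of the genes of 5 retinoid families stacked in each library (linear axes from 0, a scale for each family), with U1 and U2 the untreated and D1 and D2 the doxycycline libraries. Aldh1a2, Crabp1, Rarg, Rxra and Cyp26a1 form most of their families in every library.

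RXR genes encode the partners of the RARs, and corepressors and coactivators work through them. Of 14 receptor and cofactor genes besides Rara and Rarg, 12 were tested and none passed. At an unadjusted p under 0.05 there were 5 (15.1% of all tested genes). In both pairs 3 were higher (32.8% of all tested genes) and 7 lower (34%), and the median log2 change was -0.07. With the block 2 of the 12 fell, among them Rxrg, an RXR gene, as did 116 of all 11924 tested genes. Rxrg was at 6.49 and 8.25 FPKM under doxycycline against 8.90 and 10.3 in untreated cells, a log2 change of -0.34 ± 0.12 (SE) with limma adjusted p of 0.265 and, with the block, 0.0322. Both treated libraries were below both untreated ones. Rxra, the most abundant RXR gene, was at 37.3 and 37.2 FPKM against 35.7 and 35.8. The remaining RXR gene, Rxrb, was at 12.4 and 12.6 FPKM against 14.1 and 14.6. Its log2 change was -0.19, with limma adjusted p of 0.213 and, with the block, 0.0859.

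Of 40 other genes of retinoid uptake, storage, synthesis, binding and breakdown, 39 were in the files, 14 were tested and none passed. At an unadjusted p under 0.05 there were 4 (15.1% of all tested genes). The median log2 change of the 14 was 0.02, with 5 higher and 4 lower in both pairs (32.8% and 34% of all tested genes). Dhrs7, a short-chain dehydrogenase, had the largest change, at 1.83 and 2.57 FPKM under doxycycline against 0.686 and 1.34 in untreated cells, with a log2 change of 0.68 ± 0.19 (SE). Its limma adjusted p was 0.209, and 0.0129 with the block. Adh5, the formaldehyde-clearing class III alcohol dehydrogenase and the most abundant of the list, was at 61.2 and 64.2 FPKM against 53.2 and 55.6 (limma adjusted p = 0.160, and 0.0334 with the block). Cyp1b1, a cytochrome P450 that can oxidise retinoids, was at 1.55 and 1.66 FPKM against 2.06 and 2.14 (limma adjusted p = 0.263). Lrat, which esterifies retinol for storage, and the retinol uptake receptor gene Stra6 stayed under 0.05 FPKM on average, while Rbp4, the retinol carrier, was at 20.1 to 23.2.

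Of 21 known retinoic acid targets, 20 were in the files, 9 were tested and none passed. At an unadjusted p under 0.05 there were 2 (15.1% of all tested genes). Their median log2 change over the 9 was 0.12, at 0.01 in the replicate 1 pair and 0.23 in the replicate 2 pair. The lists share some genes, among them Cyp26a1 and Stra6, which stand in this list and the preceding one, and Rarb, which stands in this list and the receptor list. Rec8, the meiotic cohesin, was at 12.6 and 15.3 FPKM under doxycycline against 10.6 and 11.4 in untreated cells, a log2 change of 0.31 ± 0.09 (SE) with limma adjusted p of 0.228 and, with the block, 0.0399. Kit, the receptor of differentiating spermatogonia, was at 2.43 and 2.49 FPKM against 2.29 and 1.79 (limma adjusted p = 0.438). Stra8 was at 8.11 and 9.97 FPKM against 8.25 and 7.98, lower in the replicate 1 pair and higher in the replicate 2 pair (limma adjusted p = 0.553). Ccnd2, the cyclin D2 gene and the most abundant target tested, was at 146.9 and 153.9 FPKM against 158.0 and 178.6 (limma adjusted p = 0.329). Sertoli markers, from cells that in the testis also express retinoid genes, summed to 11.1 and 11.7 FPKM under doxycycline against 9.55 and 10.5 in untreated cells. Only 4 Sertoli markers were tested, and none passed with or without the block. In both pairs 2 of the 4 were higher and 1 lower (32.8% and 34% of all tested genes). Their median log2 change was 0.12. The part of Sertoli markers in the retinoid values was not tested.

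**Figure D4:**
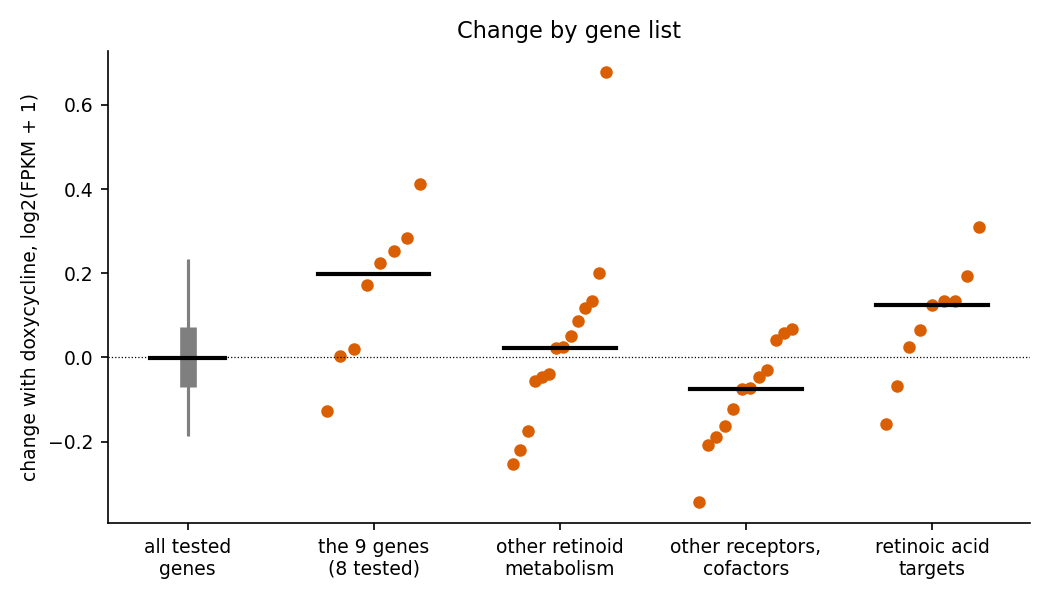
Change with doxycycline on the log2(FPKM + 1) scale for each tested gene of 4 lists (orange points, sorted within a list), with black lines for medians. The grey bar for all tested genes spans the quartiles, -0.07 to 0.07, and the thin line the 5th to 95th percentile, -0.19 to 0.23. The median of the 8 tested members is 0.20 and that of all tested genes -0.0022.

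By distance between centred log2 values over the 4 libraries, the genes of at least 5 FPKM most like Aldh1a3 were Tubb6, Prkcb and Pard3, with root mean square distances of 0.0183, 0.0192 and 0.0199. Those most like Dhrs3 were the imprinted long RNA H19, the kinesin gene Kif11 and the thrombin receptor gene F2r, at 0.0031, 0.012 and 0.012. H19 was at 59.4 and 60.1 FPKM under doxycycline against 49.2 and 48.5 in untreated cells. These were the closest of 8583 and 8582 candidates over only 4 libraries, and none of the 6 passed limma's test, with adjusted p from 0.0578 for H19 to 0.140 for F2r.

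RefSeq start windows, from 250 bases before to 50 after a start (GRCm38.p6), were searched on both strands for the RAR half-site AGGTCA. Its variant spellings searched were AGTTCA for the first, then GGGTCA for the second, then GGTTCA for the third. Windows were at hand for 6 members, and Aldh1a3, Rdh10 and Crabp2 had none. Rara and Rarg held a half-site, as did 41.6% of 8516 tested genes with a window, while Aldh1a2, Dhrs3, Crabp1 and Cyp26b1 held none. The matches upstream of a start are shown because they lie in the genes of the receptors themselves, with the half-site or its complement in capitals on the gene's strand.
Rara, 246 bases upstream, chr11:98939461-98939480: ggtgTGAACCtgtggtgtat
Rara, 199 bases upstream, chr11:98939502-98939527: agctggtcgcAGTTCAgtgaagcccc
Rara, 122 bases upstream, chr11:98939579-98939604: ctctctcatcTGACCCtgaatgcacc
Rara, 81 bases upstream, chr11:98939620-98939645: atccctctctGGTTCAcctcctcctc
Rarg, 225 bases upstream, chr15:102257732-102257757: cccaggacacTGACCTctgccagctc
No member window held the DR5 or DR2 element, a pair of such half-sites spaced by 5 or 2 bases, which 0.0352% and 0.0939% of tested genes held. The 4 Rara matches upstream belong to 1 of its 4 windows, and another window held a match 33 bases after its start. A half-site is short, and so is found in many windows.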

How the data were processed

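The cells' RNA was extracted with TRIzol, and libraries were run on a HiSeq4000 (labels' protocols). The submitters' processing notes name, without role or order, TopHat2 2.0.6, Cufflinks 2.0.2, Cuffdiff and the mouse build mm9. The authors deposited FPKM for each gene and library, a unit scaled for transcript length and library size, per the file headers. Annotation, strand setting and read depth are not stated there. Each table held 23021 lines for 22552 symbols. Lines of the 259 repeated symbols were summed, and each member had 1 line. Loci and confidence bounds come from the table of doxycycline replicate 1.

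The test was limma 3.58.1 in R 4.3.3, applied to log2(FPKM + 1) of the 11924 genes averaging 1 FPKM or more, with an intensity trend, two-sided, and with p-values adjusted by Benjamini-Hochberg. The log2(FPKM + 1) scale understates changes of low genes. The script was tested on simulated data. Residual degrees of freedom were 2, and 1 with the replicate number as a block. Pairing rests on the design text, which names 2 clones in each condition. Across genes, the deviations from the group mean correlated at 0.215 between libraries of the same number. Since n is 2, p-values reflect only how these libraries vary, and an exact permutation test of 2 against 2 cannot go below 0.333. The members and lists were chosen with earlier results of these data known, so no list was tested as a set. Named genes are all members, the 2 of each other retinoid list with the largest change and its most abundant one, and the 3 genes nearest to each of the 2 members that changed most; a gene that falls under this rule is not reported here. Aldh1a1, Cyp26a1, Cyp26c1, Rarb, Rxra, Rxrb, Lrat, Stra6, Stra8 and Rbp4 were named for their families or roles after their values were seen. The markers Nanos3, Utf1, Lum, Col1a1 and Dcn were also named after their values were seen. The order of lines differs between tables, so the alternative of 1 line per symbol took the highest line of each library. Sequences were handled in Python 3.11.15. The longest 3' UTR per gene came from GENCODE M21.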

Additional observations from a re-analysis of the deposited data

Results flagged for a closer look

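Rdh10 and Rarg moved in opposite directions in the same-numbered pairs. The log2 change of Rdh10 was 0.075 in replicate 1 and -0.034 in replicate 2, a difference of 0.11. That of Rarg was -0.0024 and 0.0083, a difference of -0.011. With 1 pair per replicate number, neither difference was tested.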

How the results depend on the processing

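No member passed in any of 11 of the 12 alternatives, and with the replicate block 1 did, Aldh1a3. Of the 33 tested genes of the other retinoid lists 5 passed with the block, as did 3.7% of all tested genes. The 3 that rose were Adh5, Dhrs7 and Rec8, and Rxrg was among the 2 that fell. Without the block none of these lists' genes passed in the alternatives that kept every library. The count of all genes past the threshold was 33, and 441 with the replicate block, 1 with no expression filter, 88 with a mean of at least 5 FPKM, and 2 to 60 when a library was left out. Dropping doxycycline replicate 1 gave 60, dropping its replicate 2 gave 5, and dropping the untreated replicates 1 and 2 gave 5 and 2. The log2 change of Aldh1a3 ran from 0.33 to 0.56 over its 11 alternatives, with adjusted p from 0.0462 to 0.539. That of Dhrs3 ran from 0.27 to 0.32 over 12, that of Aldh1a2 from 0.16 to 0.29, that of Crabp1 from 0.027 to 0.32 and that of Crabp2 from 0.052 to 0.45, all in the same direction. That of Rara ran from -0.24 to -0.0099 over 12. Rarg changed sign under quantile normalization (-0.015), and with a library left out it ran from -0.064 to 0.070, below 0 without doxycycline replicate 2 (-0.064) or untreated replicate 1 (-0.059). Rdh10 ran from -0.056 to 0.097 with a library left out, below 0 without doxycycline replicate 1 (-0.056) or untreated replicate 2 (-0.0017). The cause was not tested. The members' median log2 change lay between 0.11 and 0.23. Read depth is unknown, and with 2 libraries a group a miss does not show that a gene did not change.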
